A study of Mus musculus with 6 samples.

Results

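The 33 smooth muscle contractile genes described here encode actins, myosins, regulators of the thin filament, anchoring proteins, calcium channels and transcription factors of the contractile apparatus. They were chosen as a list of names, with no threshold on a measured value, and all 33 were found among the 33697 genes counted. The list and the gates described below were chosen with earlier results of these data known. The tests between gates are therefore not independent of that choice. They were measured by droplet-based single-cell RNA sequencing in live tdTomato+ cells that had been sorted from the gut lamina propria of Flare-TSLP mice, and the labels name no treatment. In these mice an IRES-tdTomato cassette reports the Tslp locus, every library carries that same allele, and the line was derived from 1 targeted embryonic stem cell clone. For the study as a whole the methods give female and male mice of 8 to 12 weeks. There were 6 libraries, with 2 replicates each of the proximal small intestine (jejunum) and the distal small intestine (ileum) and a single library each of the cecum and the large intestine, both of which are called the large bowel here. Each library held 3 hashtags that could not be assigned to mice, so it was counted as 1 sample, and p-values measure only the spread between these libraries.

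Smooth muscle contracts when calcium enters through L-type channels or leaves the sarcoplasmic reticulum and myosin light chain kinase phosphorylates the regulatory light chain of myosin. The smooth muscle actins Acta2 and Actg2 and the myosin heavy chain Myh11 generate the force, calponin, caldesmon and tropomyosins lie along the thin filament, and desmin and synemin filaments together with filamin and vinculin carry the force to dense bodies and the cell surface. The genes share a transcriptional switch, in which serum response factor (Srf) binds CArG boxes in the DNA and its muscle cofactor myocardin (Myocd) activates them. In the gut the program is known from the muscle layers, from muscle strands of the villus core, from mural cells of vessels and, in part, from the fibroblasts under the epithelium that are called subepithelial myofibroblasts.

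Cells were assigned to classes by pairs of genes that are not members, with at least 1 UMI of each. A UMI is the tag that marks 1 captured transcript. The gates were Hhip and Npnt (meant for myofibroblasts), Rgs5 and Kcnj8 (pericytes), Agt and Wnt4 (subepithelial fibroblasts) and Lgr5 and Foxl1 (telocytes, which are subepithelial cells that take precedence where both gates apply). Grem1 and Dkk2 (trophocytes) and Lyve1 and Prox1 (lymphatic endothelium) served as references. Cells in any other pair of gates were left out, so the classes do not hold every cell positive for a pair. Of the Hhip and Npnt gate, 60 cecal and 12 large intestinal cells were also in the Agt and Wnt4 gate, against 62 and 12 that were kept, and the small intestinal libraries had 6 to 18 such cells. With the Grem1 and Dkk2 gate the overlap was 67, 78, 44 and 95 cells in proximal replicates 1 and 2 and distal replicates 1 and 2, against 193, 136, 73 and 246 kept, with 1 such cecal cell and 0 from the large intestine. Of the Rgs5 and Kcnj8 gate, up to 657 cells of a library (distal replicate 2, with 226 kept) were also in the Lyve1 and Prox1 gate. What the cells left out add to the results was not tested. Over the 6 libraries 722 Hhip+Npnt+ cells were kept, with 12 to 246 in a library, beside 1521 Rgs5+Kcnj8+ cells (92 to 505), 8790 Agt+Wnt4+ cells (428 to 3298) and 118 Lgr5+Foxl1+ cells (4 to 63). The reference gates held 21317 Grem1+Dkk2+ cells (26 to 8638) and 14179 Lyve1+Prox1+ cells (218 to 5496). A class with fewer than 10 cells was left out of that library, which removed the Lgr5+Foxl1+ cells of distal replicate 2. The libraries held between 109675337 and 206827504 UMIs on genes and between 11174 and 19073 kept cells, and any pair of libraries shared between 36 and 100 cell barcodes. The unit of a level is CPM: a gene's UMIs were divided by all UMIs of the same gate and library and multiplied by 1e6. Since the chemistry counts transcript ends, a level is compared only between cells for the same gene. Values in every library follow the order proximal replicates 1 and 2, distal replicates 1 and 2, cecum, large intestine. A tdTomato UMI was found in 1, 0, 2, 0, 4 and 2 of the Hhip+Npnt+ cells. It was rare in the other gates too. In proximal replicate 1 it was found in 12 of 385 Rgs5+Kcnj8+, 10 of 624 Agt+Wnt4+, 1 of 18 Lgr5+Foxl1+, 161 of 4611 Grem1+Dkk2+ and 29 of 2333 Lyve1+Prox1+ cells, against 1 of 193 Hhip+Npnt+ cells. The authors also removed clusters by their number of tdTomato+ cells, which was not done here. Fewer contractile cells within a gate and less transcript in each of them cannot be told apart in these sums.

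The names of both contractile gates held only in part. Of the Rgs5+Kcnj8+ cells, 88.6%, 78.5%, 90.7%, 54.0%, 33.7% and 51.3% had a UMI of the fibroblast receptor Pdgfra. The pericyte receptor Notch3 lay between 15.5 and 126 CPM in these cells and between 574 and 1156 CPM in the gated cells without Pdgfra, so the small intestinal libraries held mostly Pdgfra+ cells that lack the Notch3 level of pericytes. The neurotrophic factor Ptn, which is no pericyte marker, reached 1988 CPM in the Rgs5+Kcnj8+ cells with Pdgfra in proximal replicate 1, against 0 CPM in those without. Over the 6 libraries Ptn lay between 41.9 and 1988 CPM with Pdgfra and between 0 and 62.4 CPM without, so the ranges overlapped. Of the Hhip+Npnt+ cells, 36.8%, 52.2%, 41.1% and 28.5% had a Pdgfra UMI in the small intestinal libraries, but 80.6% did in the cecum and 91.7% (11 of 12 cells) in the large intestine. The Hhip+Npnt+ cells with Pdgfra also had more of Nrg1, a ligand of the epidermal growth factor receptor family, in the large bowel (1289 CPM in the cecum and 649 CPM in the large intestine) than in the small intestine, where the highest library had 562 CPM. Nrg1 did not mark these cells off from the rest of the gate. Its mean was 460 ± 481 CPM with Pdgfra (SD, n = 6) and 424 ± 391 CPM without it (n = 5). Without the gate genes, for which the cells were selected, the other 7 markers of the myofibroblast and smooth muscle list summed to between 419 and 760 CPM in the Hhip+Npnt+ cells and to between 297 and 410 CPM in the Rgs5+Kcnj8+ cells. The other 8 pericyte markers summed to between 167 and 329 CPM and between 1090 and 2599 CPM, respectively. Of other cell types, 7 immune markers summed to at most 627 CPM in the Hhip+Npnt+ cells, 1205 CPM in the Rgs5+Kcnj8+ cells and 790 CPM in the Agt+Wnt4+ cells of a library, 4 markers of enteric glia to at most 9.26 CPM, and their part in the results was not tested. The classes are therefore called by their gate genes.

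The promoters are shown for the members that carry a CArG box, because the box is the site through which Srf acts on this program. In the GRCm39 genome, the build to which the authors aligned, 6 of the 33 members had a box that matches the consensus in the 300 bases before the start of their canonical transcript (GENCODE annotation), which is 18.2% of them, against 369 of 21770 protein-coding genes (1.69%). The consensus reads the same on both strands. The windows run in the direction of transcription from 20 bases before the first box to 20 bases after the last, with the boxes in capitals.
Tagln, chr9:45847439-45847488, minus strand: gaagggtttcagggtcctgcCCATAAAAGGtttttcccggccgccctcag
Cnn2, chr10:79824358-79824407, plus strand: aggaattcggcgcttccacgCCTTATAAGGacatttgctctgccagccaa
Cald1, chr6:34575164-34575213, plus strand: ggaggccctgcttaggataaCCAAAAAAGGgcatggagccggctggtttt
Vcl, chr14:20979219-20979268, plus strand: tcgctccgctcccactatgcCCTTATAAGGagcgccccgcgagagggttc
Fhl1, chrX:55824921-55824970, plus strand: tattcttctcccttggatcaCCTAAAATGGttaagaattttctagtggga
Srf, chr17:46867121-46867190, minus strand: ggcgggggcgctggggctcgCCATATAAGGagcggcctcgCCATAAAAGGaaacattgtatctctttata
The box began 64 bases before the start in Tagln, 33 in Cnn2, 251 in Cald1, 227 in Vcl and 142 in Fhl1, and Srf itself had boxes at 51 and 31 bases. Cnn2 and Vcl held the same box, as did Tagln and the second box of Srf. The windows of the other 27 members, Acta2, Actg2, Myh11, Des and Cnn1 among them, held no exact match, which says only that these letters are not in this window.

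By the mean CPM over libraries, 30 of the 33 members were highest in the Hhip+Npnt+ cells, as were 12.7% of the 11777 genes tested between these and the Agt+Wnt4+ cells. The exceptions were Ryr2, the calcium release channel of the sarcoplasmic reticulum (54.4 ± 25.2 CPM, SD, n = 6, in Rgs5+Kcnj8+ cells against 43.8 ± 34.8 in Hhip+Npnt+ cells), Ppp1r14a, the kinase-regulated inhibitor of myosin phosphatase (368 ± 360 CPM, n = 5, in Lgr5+Foxl1+ cells against 247 ± 107), and Smtn, the actin-binding smoothelin (148 ± 39.8 CPM in Lyve1+Prox1+ cells against 145 ± 51.8). All 3 of these differences were smaller than the spread between libraries. Library by library, 17 members were highest in the Hhip+Npnt+ cells in all 6, against 0.705% of the same genes.

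**Figure D1:**
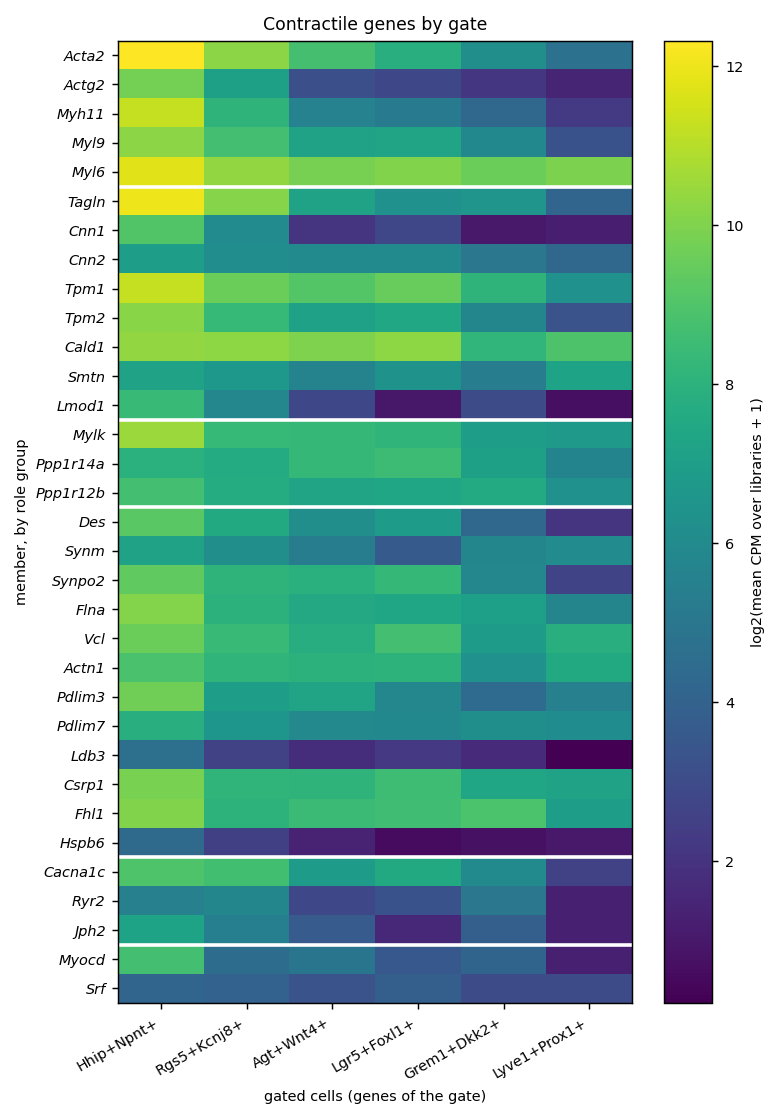
Mean level of each of the 33 members over libraries with at least 10 cells, as log2(CPM + 1) in color, for the 6 gates (columns), with members in rows and white lines between the role groups. The Hhip+Npnt+ column is the brightest for 30 members, and Acta2 falls from 5117 CPM there to 25.8 CPM in the Lyve1+Prox1+ column.

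Of the contractile filaments, Acta2, the smooth muscle α-actin, had 5208, 4730, 5126, 6071, 5214 and 4355 CPM in the Hhip+Npnt+ cells and 257, 306, 179, 251, 450 and 1113 CPM in the Agt+Wnt4+ cells. Summed over the first gate the level was thus even along the gut, whereas the large intestine stood above all other libraries in the second. The Pdgfra+ share of the first gate was not even, and within its parts with and without Pdgfra, given below, Acta2 was higher in the large bowel. In the Rgs5+Kcnj8+ cells Acta2 had 316, 423, 543, 573, 3610 and 1669 CPM, so the cecum and the large intestine lay above every small intestinal library. Actg2, the γ-actin typical of visceral muscle, had 1323, 1042, 975, 1301, 467 and 265 CPM in the Hhip+Npnt+ cells and at most 17.3 CPM in the Agt+Wnt4+ cells. Its range in the Rgs5+Kcnj8+ cells, 5.43 to 582 CPM, overlapped that of the Hhip+Npnt+ cells. Myh11, the smooth muscle myosin heavy chain, had 3219, 2566, 2811, 4413, 918 and 870 CPM in the Hhip+Npnt+ cells and between 8.23 and 129 CPM in the Agt+Wnt4+ cells. Its range in the Rgs5+Kcnj8+ cells was 68.5 to 856 CPM. For both genes the large bowel lay below the small intestine in the first gate, with no overlap. Of the light chains, Myl9 had a mean of 1189 ± 188 CPM and Myl6 one of 3461 ± 836 CPM in the Hhip+Npnt+ cells (SD, n = 6). Myl6 is less certain, since 99.7% of the words of 31 bases in the last 400 bases of its transcript also occur in transcripts of at least 5 other annotated genes.

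Among the thin filament regulators, Tagln (transgelin), an actin-binding marker of the smooth muscle state, had 4158, 3623, 5450, 5452, 3755 and 1992 CPM in the Hhip+Npnt+ cells. It had 221, 321, 468, 544, 3669 and 1520 CPM in the Rgs5+Kcnj8+ cells and 88.7, 78.0, 48.5, 75.1, 192 and 393 CPM in the Agt+Wnt4+ cells. The 2 large bowel libraries were the highest in both of these gates and the large intestine the lowest in the first. Cnn1, the smooth muscle calponin, had 646, 500, 671, 921, 319 and 80.2 CPM in the Hhip+Npnt+ cells. Its range in the Rgs5+Kcnj8+ cells, 1.22 to 308 CPM, overlapped these values. In the Agt+Wnt4+ cells it stayed between 0.284 and 7.76 CPM, and in the Lyve1+Prox1+ cells its mean was 1.36 ± 0.422 CPM. Lmod1, a leiomodin that nucleates actin filaments, had means of 346 ± 210 CPM in the Hhip+Npnt+ cells and 6.20 ± 0.879 CPM in the Agt+Wnt4+ cells. Cald1, the caldesmon gene, had means of 1293 ± 342, 1237 ± 443, 1002 ± 212 and 1218 ± 244 CPM in the Hhip+Npnt+, Rgs5+Kcnj8+, Agt+Wnt4+ and Lgr5+Foxl1+ cells but only 294 ± 50.7 CPM in the Grem1+Dkk2+ cells.

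Of the kinase and the intermediate filament genes, Mylk, the myosin light chain kinase, had 1709, 1562, 1259, 2220, 928 and 876 CPM in the Hhip+Npnt+ cells and between 227 and 345 CPM in the Agt+Wnt4+ cells. Des (desmin), the intermediate filament protein of muscle, had 960, 656, 884, 831, 190 and 18.5 CPM in the Hhip+Npnt+ cells, where the 2 large bowel libraries lay far below the others. In the Rgs5+Kcnj8+ cells Des had 68.0, 83.4, 81.0, 151, 518 and 234 CPM, with the 2 large bowel libraries highest. The share of Pdgfra+ cells was lowest in these libraries, and whether the 2 are linked was not tested. Among the cells with Pdgfra alone the cecum was also highest, at 427 CPM. In the Agt+Wnt4+ cells Des had 86.1, 57.9, 88.6, 68.3, 107 and 20.5 CPM, with the large intestine lowest.

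Of the calcium genes, Cacna1c, the pore of the L-type calcium channel, had 665, 593, 441, 1007, 164 and 154 CPM in the Hhip+Npnt+ cells, 142, 260, 172, 790, 648 and 417 CPM in the Rgs5+Kcnj8+ cells and 112, 137, 118, 262, 30.3 and 55.2 CPM in the Agt+Wnt4+ cells. The large bowel was lowest in the first and the last of these gates. Jph2, a junctophilin that ties the sarcoplasmic reticulum to the cell membrane, had means of 150 ± 49.8, 42.6 ± 34.0 and 12.1 ± 8.06 CPM in the same gates. Myocd, the cofactor of Srf, had 570, 498, 560, 769, 77.5 and 18.5 CPM in the Hhip+Npnt+ cells. In the Agt+Wnt4+ cells it had 47.4, 46.2, 7.38, 17.98, 32.6 and 23.3 CPM. The large intestinal Hhip+Npnt+ values of 18.5 CPM, for Myocd and for Des, came from 12 cells with 162113 UMIs in all and so from few UMIs. Srf was low in every gate, with 13.3, 17.0, 19.8, 23.4, 2.35 and 24.7 CPM in the Hhip+Npnt+ cells and between 7.31 and 10.7 CPM in the Agt+Wnt4+ cells. Its cecal Hhip+Npnt+ value came from 62 cells with 425811 UMIs in all.

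**Figure D2:**
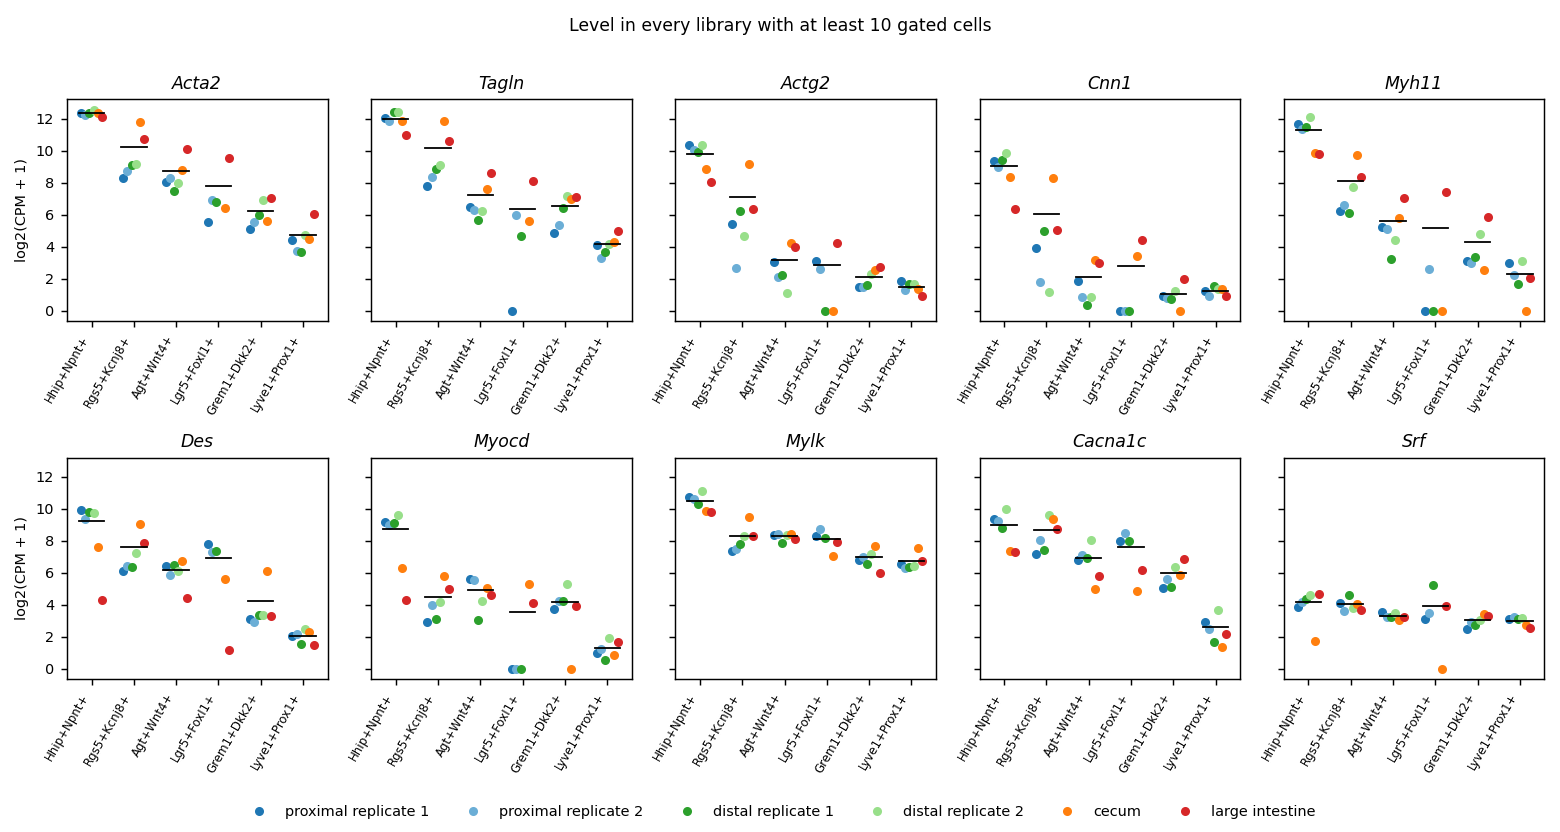
Level of 10 members in every library, as log2(CPM + 1), in each gate with at least 10 cells of the library; points are libraries, colored by region and replicate, and black bars are the log2 of the mean CPM + 1. Acta2 in the Hhip+Npnt+ cells spans only 4355 to 6071 CPM, while the red point of the large intestine lies at 18.5 CPM for Des and for Myocd in the same gate.

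Compared with the Agt+Wnt4+ cells, the Hhip+Npnt+ cells had more of nearly the whole contractile set. This comparison asks how far muscle-like cells stand apart from the fibroblasts that the study names subepithelial myofibroblasts. By edgeR's quasi-likelihood test with the library as a block and Benjamini-Hochberg adjustment over all 11777 genes tested, 31 of the 33 members rose and 0 fell at an adjusted p under 0.05, against 13.4% of all genes higher and 11.1% lower. The median log2 fold change was 2.24 over the members and -0.01 over all genes. For 24 of the 33 members every Hhip+Npnt+ library lay above every Agt+Wnt4+ library, against 2.9% of all genes tested. The largest fold changes were those of Cnn1 (log2 fold change 7.47 ± 0.95 SE, adjusted p 0.000654), Actg2 (7.10 ± 0.86, adjusted p 0.000483) and Myh11 (6.07 ± 0.84, adjusted p 0.000979). Acta2 differed by less, at 3.97 ± 0.40 (adjusted p 0.000187). All 5 filament and motor genes rose, as did all 12 genes of filaments, dense bodies and adhesions, among them Des (2.83 ± 0.50), the filamin Flna (2.58 ± 0.23) and the dense body protein Synpo2 (1.53 ± 0.12). Of the regulators of calcium and transcription, Jph2 (3.91 ± 0.43), Ryr2 (3.05 ± 0.38), Cacna1c (2.16 ± 0.16), Myocd (3.64 ± 0.76) and Srf (0.95 ± 0.27, adjusted p 0.0313) rose as well. Srf lost its call in 7 of 20 and Synm in 6 of 21 alternatives, both of them without any 1 of the 4 small intestinal libraries. The 2 members that did not pass were Ppp1r14a, at -0.06 ± 0.20 (adjusted p 0.871), and Cald1, at 0.41 ± 0.13 (adjusted p 0.053). Of 30 other genes of the pathway, 28 were tested, of which 18 rose and 2 fell. The highest were Kcnma1, the pore of the large-conductance potassium channel (6.83), the dystrophin gene Dmd (4.42) and the ryanodine receptor Ryr3 (4.21), and those lower were the angiotensin receptor Agtr1a (-1.14) and the myosin light chain Myl12b (-0.39). The count of members was between 28 and 31 with any library left out.

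The same genes were compared between the 2 gates meant for muscle-like and mural cells. Of 32 members tested, 24 were higher in the Hhip+Npnt+ than in the Rgs5+Kcnj8+ cells and 0 were lower, where 7.59% of the 10831 genes were higher and 8.55% lower (edgeR, adjusted p under 0.05, library as a block). The median log2 fold change was 1.92 over the members and 0.01 over all genes. Cnn1 (4.53 ± 1.20, adjusted p 0.0311), Myocd (4.27 ± 1.01, adjusted p 0.0185) and Actg2 (4.01 ± 1.03, adjusted p 0.0274) differed most. Pdlim3, a PDZ and LIM protein of the dense body, had a smaller error (2.97 ± 0.37, adjusted p 0.000627), as did Mylk (2.36 ± 0.41, adjusted p 0.00392). The 8 members that did not pass were Des (1.90 ± 0.98, adjusted p 0.246), Synm (0.92 ± 0.48), Smtn (0.57 ± 0.21), Ppp1r14a (0.50 ± 0.16, adjusted p 0.0608), Cacna1c (0.43 ± 0.56), Srf (0.23 ± 0.32), Cald1 (0.13 ± 0.14) and Ryr2 (-0.41 ± 0.26). For 10 of these 32 members every Hhip+Npnt+ library lay above every Rgs5+Kcnj8+ library, against 2.36% of all genes tested, and for the other 22 the libraries overlapped. Of 29 other pathway genes tested, 6 rose and 7 fell in the Hhip+Npnt+ cells. Kcnma1 (4.35), Ryr3 (2.74), the potassium channel subunit Kcnmb1 (2.44) and Dmd (2.42) were higher. The muscarinic receptor Chrm2 (-2.97), the subunits Gucy1b1 (-2.63) and Gucy1a1 (-2.46) of the nitric oxide receptor and the calcium pump Atp2a2 (-1.65) were lower. The count of 24 moved with the small intestinal libraries and was 15 without proximal replicate 1, 14 without proximal replicate 2 and 13 without distal replicate 1. Where 2 UMIs summed over the gate genes were enough to enter a gate, only 7 members passed.

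**Figure D3:**
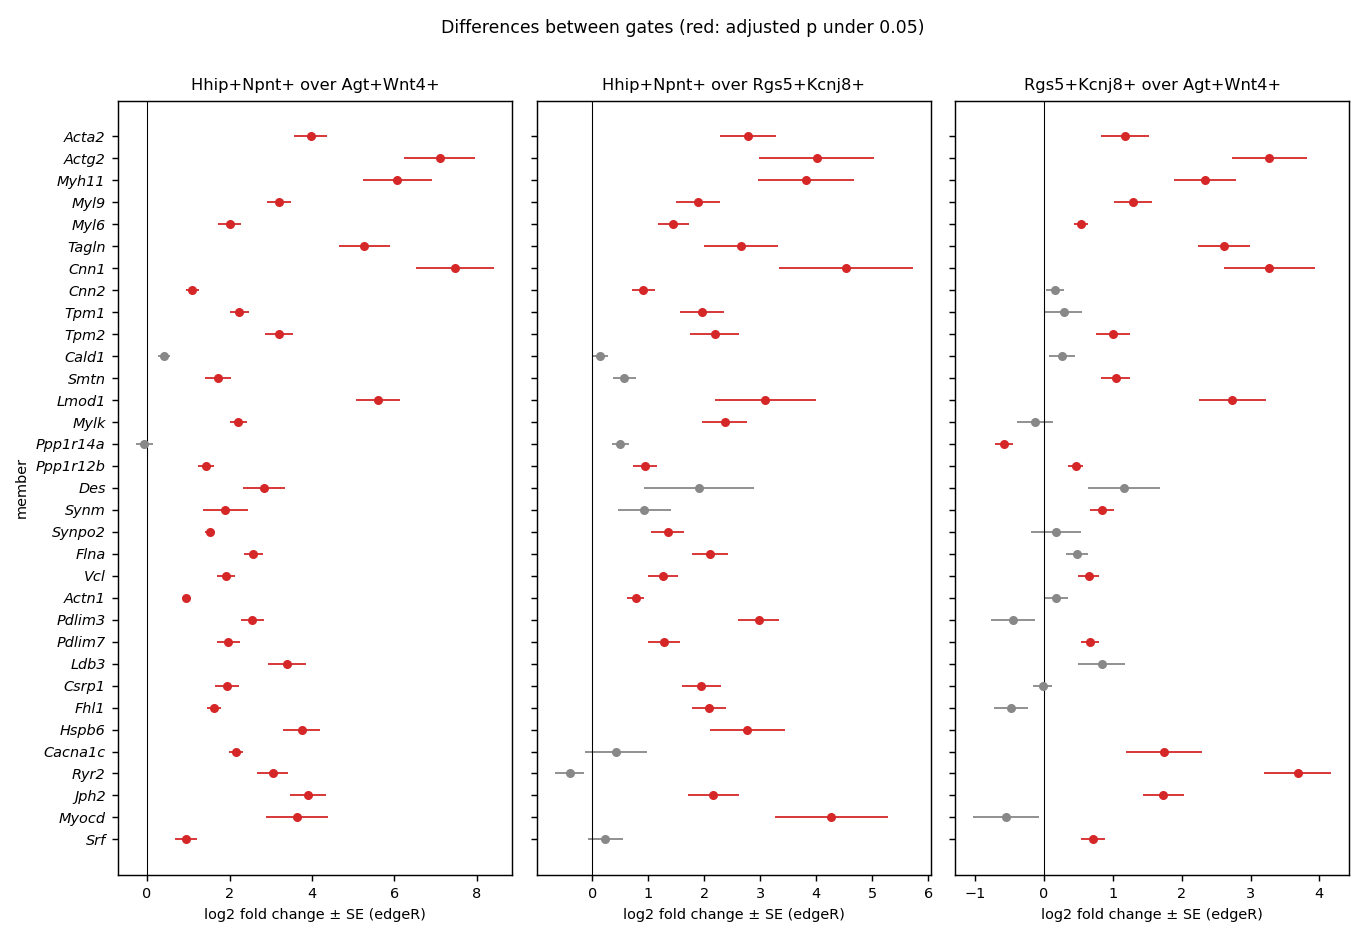
Log2 fold change of each member with its standard error, from edgeR, for 3 comparisons between gates; red points passed an adjusted p of 0.05 and a missing point was not tested. All 31 red points of the left panel lie to the right of zero, Ppp1r14a lies at -0.06 there, and Ryr2 is the rightmost point of the right panel at 3.69.

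Because Pdgfra+ cells made up much of both gates, each gate was also divided by the presence of a Pdgfra UMI, a choice made after the data had been seen. In the Hhip+Npnt+ gate 28 of the 33 members were higher in the cells without Pdgfra in all 5 libraries that had 10 or more cells of each kind. Of the 10831 genes tested between the 2 contractile gates, with 27 of 32 members among them, 10.3% were. Acta2 had 7437, 7895, 7410, 7272 and 12005 CPM without Pdgfra in the 4 small intestinal libraries and the cecum, and 1607, 2079, 2470, 3405 and 3631 CPM with it. Des had 1331, 1231, 1454, 1097 and 907 CPM without Pdgfra, and 360, 174, 222, 242 and 23.2 CPM with it. For Des the cecum was closer to the small intestine without Pdgfra than in the whole gate, and for Acta2 it was further away, above all 4 small intestinal libraries. The large intestine had 3794 CPM of Acta2 in its 11 cells with Pdgfra. In that part, too, the large bowel libraries lay above all 4 small intestinal ones. In the Rgs5+Kcnj8+ gate 10 of the 33 members were higher without Pdgfra in all 6 libraries, against 10.1% of the same genes, among them Cacna1c, with 748, 1368, 1045, 1674, 880 and 882 CPM against 38.0, 33.9, 96.1, 190, 302 and 109 CPM, and Des, with 237, 422, 748, 338, 579 and 502 CPM against 38.8, 14.3, 23.0, 23.5, 427 and 56.5 CPM. Without Pdgfra the 2 large bowel libraries lay within the small intestinal range of Des. Synm (synemin), the partner of desmin, was lower without Pdgfra in 5 of the 6 libraries. With the Pdgfra+ cells of both gates removed, 26 of 30 members tested were higher in the Hhip+Npnt+ than in the Rgs5+Kcnj8+ cells and 0 were lower (5 libraries), where 12.4% of the 6353 genes tested were higher and 16.3% lower.

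**Figure D4:**
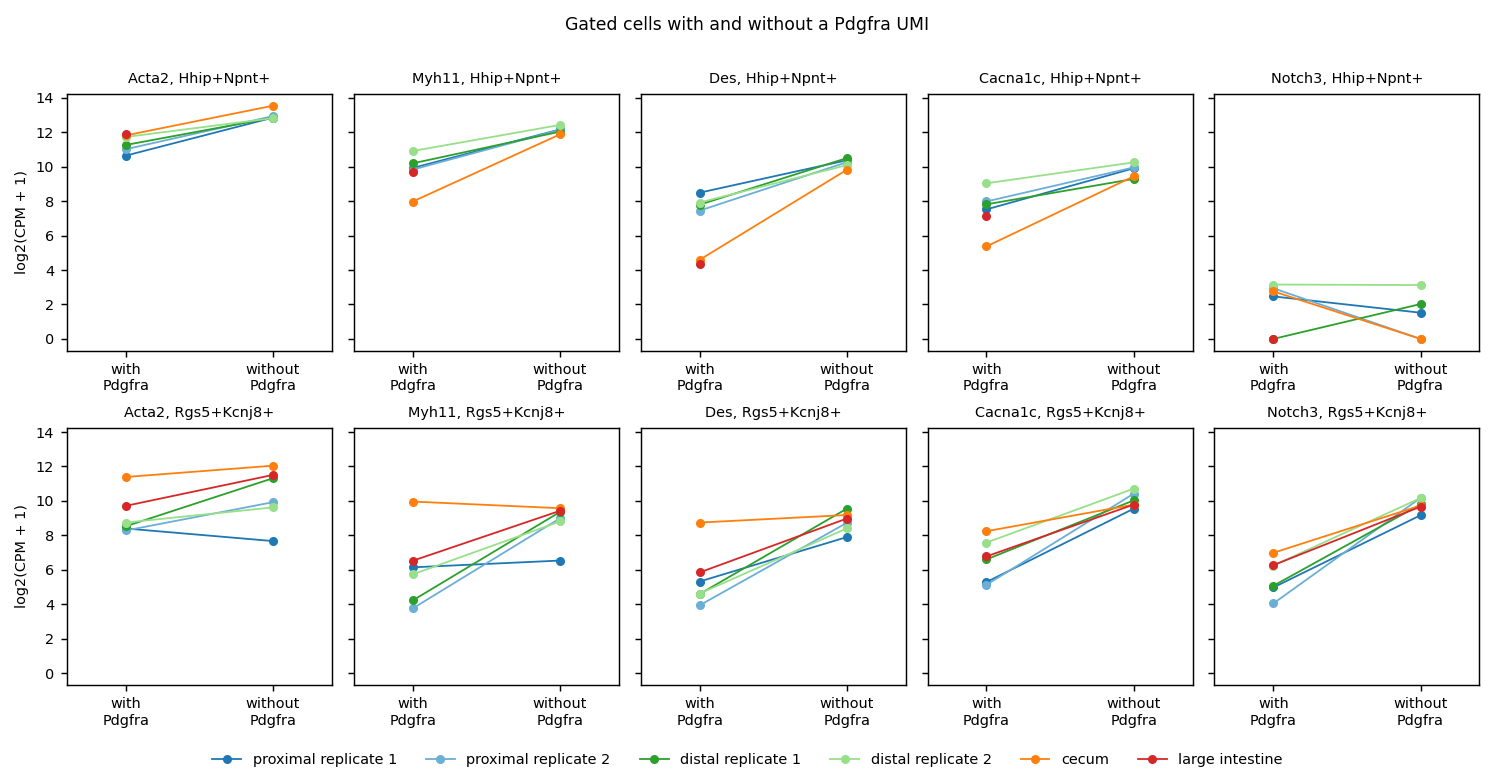
Level, as log2(CPM + 1), of Acta2, Myh11, Des, Cacna1c and the pericyte gene Notch3 in the gated cells with and without a Pdgfra UMI; the upper row shows Hhip+Npnt+ cells, the lower row Rgs5+Kcnj8+ cells, and each line is a library with at least 10 cells in the part shown. Des rises from left to right in every line that has both points, and Notch3 does so in the lower row.

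In the Rgs5+Kcnj8+ cells fewer members stood above the Agt+Wnt4+ cells. Of 32 members tested 18 rose and 1 fell, against 14.6% of the 12513 genes higher and 14.4% lower (edgeR, library as a block), with a median log2 fold change of 0.69 over the members and -0.04 over all genes. All 3 calcium genes rose, with Ryr2 at 3.69 ± 0.49 (adjusted p 0.00155), Cacna1c at 1.74 ± 0.55 (adjusted p 0.0496) and Jph2 at 1.73 ± 0.30 (adjusted p 0.00463). Within the Rgs5+Kcnj8+ gate Cacna1c and Jph2 were higher without Pdgfra in all 6 libraries, but Ryr2 in only 2. Its mean was 55.9 ± 28.2 CPM with Pdgfra and 38.5 ± 27.0 CPM without (SD, n = 6). All 5 filament and motor genes rose too, among them Actg2 (3.27 ± 0.55), Myh11 (2.34 ± 0.45) and Acta2 (1.17 ± 0.35, adjusted p 0.0389). Of the thin filament regulators Cnn1 (3.27 ± 0.66), Lmod1 (2.74 ± 0.48) and Tagln (2.61 ± 0.38) were among the 5 that rose. The libraries of the 2 gates did not overlap for 3 of the 32 members, all higher in the Rgs5+Kcnj8+ cells, where 5.08% of all genes tested had that order. Cacna1c lost its call in 9 and Acta2 in 8 of 21 alternatives, both of them without proximal replicate 2, distal replicate 1 or distal replicate 2, and Cacna1c also without the large intestine. The member that fell was Ppp1r14a (-0.58 ± 0.13, adjusted p 0.0126). Mylk (-0.13 ± 0.26), Myocd (-0.55 ± 0.48) and Des (1.17 ± 0.52, adjusted p 0.133) did not pass. With the Pdgfra+ cells removed, 22 of 31 members rose and 0 fell, against 14.9% and 12.7% of the 11602 genes tested, and Mylk was then called, at 1.09. Of 29 other pathway genes tested 16 rose and 0 fell, led by Chrm2 (5.81), Kcnma1 (2.47), Gucy1a1 (2.40), the membrane scaffold Cav1 (2.39) and Atp2a2 (2.30). When cells were thinned to 2500 UMIs before gating, 24 members could be tested and 7 were called, 6 of them higher.

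Lgr5+Foxl1+ cells were compared with the other subepithelial cells in the 5 libraries that held at least 10 of them. Few members differed, with 2 higher and 3 lower of 30 tested, and the shares of all 11257 genes were 4.12% higher and 4.37% lower (edgeR). The focal adhesion protein Vcl (1.01 ± 0.19, adjusted p 0.00392) and Cacna1c (0.86 ± 0.23, adjusted p 0.0318) rose. Pdlim3 (-1.65 ± 0.30, adjusted p 0.00334), Synm (-1.64 ± 0.36, adjusted p 0.0103) and Acta2 (-1.42 ± 0.30, adjusted p 0.00937) fell. Acta2 had 46.0, 118 and 112 CPM in the Lgr5+Foxl1+ cells of proximal replicates 1 and 2 and distal replicate 1, 85.0 CPM in the cecum and 753 CPM in the large intestine. Its level was lower than in the Agt+Wnt4+ cells of the same library in all 5. The median log2 fold change was -0.02 over the members and -0.10 over all genes. A library held only 10 to 63 of these cells. The calls also moved with the gate, and why was not tested. Where 2 summed UMIs of the gate genes were enough, Acta2, Pdlim3 and Cacna1c changed sign and 6 members rose and 0 fell. Cacna1c lost its call in 10 more of 16 alternatives, among them without proximal replicate 1, proximal replicate 2 or distal replicate 1. Of 26 other pathway genes tested 1 rose, Cav1 (2.62), and 4 fell, among them Agtr1a (-2.42) and Gucy1a1 (-1.24). Beside these results, 6 blood endothelial markers summed to between 94.5 and 2989 CPM in the Lgr5+Foxl1+ cells, with 0 to 3 of them at 0 in the libraries tested, and to between 48.9 and 251 CPM in the Agt+Wnt4+ cells, and their part was not tested.

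In the Lgr5+Foxl1+ cells the large intestine had the lowest Des and the highest Myh11 of the libraries. Des had 223, 154 and 161 CPM in the 3 small intestinal libraries, 47.2 CPM in the cecum and 1.26 CPM in the large intestine, which is 1 UMI in 63 cells. Myh11 had 0, 5.15, 0 and 0 CPM in the same small intestinal libraries and the cecum and 171 CPM in the large intestine. With 1 library for each large bowel region these values have no replicate check.

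Compared with the crypt-side Grem1+Dkk2+ cells, the Agt+Wnt4+ cells had more of 15 contractile genes, Acta2 and Des among them, and less of 5. Of 33 members tested 15 rose and 5 fell, where 21.5% of the 14844 genes were higher and 21.5% were lower (edgeR, library as a block), and the median log2 fold change was 0.52 over the members and 0.02 over all genes. Pdlim3 (3.19 ± 0.29, adjusted p 3.73e-05), Des (2.81 ± 0.22, adjusted p 1.72e-05) and Acta2 (2.17 ± 0.31, adjusted p 0.000503) rose most. Synpo2 (1.97 ± 0.15), Cald1 (1.59 ± 0.10), the actinin Actn1 (1.51 ± 0.11) and Mylk (1.20 ± 0.14) rose as well. Actg2 (0.52 ± 0.44), Myh11 (0.99 ± 0.42, adjusted p 0.0874), Cnn1 (0.23 ± 0.42), Tagln (0.31 ± 0.38), Lmod1 (-0.09 ± 0.24) and Myocd (0.31 ± 0.49) did not pass. The members that fell were Ryr2 (-2.63 ± 0.40, adjusted p 0.000743), Synm (-0.85 ± 0.19), the LIM proteins Fhl1 (-0.61 ± 0.15) and Pdlim7 (-0.61 ± 0.13), and the myosin phosphatase subunit Ppp1r12b (-0.50 ± 0.14). Of 29 other pathway genes tested 8 rose and 12 fell. The lowest were the muscarinic receptors Chrm2 (-5.04) and Chrm3 (-4.36) and Kcnma1 (-3.94), and the highest was Kcnmb1 (2.71).

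Counted by cells instead of by UMIs, Acta2 was widespread and Actg2 was not. After thinning of every cell to 2500 UMIs, the share of Hhip+Npnt+ cells with an Acta2 UMI was between 78.2% and 93.9%, that of Rgs5+Kcnj8+ cells between 34.3% and 54.3% and that of Agt+Wnt4+ cells between 24.2% and 61.4%. The last maximum was in the large intestine (95% exact binomial interval 59.7 to 63.0), and the other libraries reached at most 38.4%. In the Lyve1+Prox1+ cells, which should lack it, the share was between 2.87% and 8.98% and is taken as the background, with median depths of 4822 to 7804 UMIs against 7408 to 10648 in the Agt+Wnt4+ cells. An Actg2 UMI was found in 49.9% ± 22.5 of the Hhip+Npnt+ cells (SD, n = 6), in 6.75% ± 7.35 of the Rgs5+Kcnj8+ cells and in 1.18% ± 0.475 of the Agt+Wnt4+ cells, against 0.423% ± 0.281 of the Lyve1+Prox1+ cells. Myh11 was found in 17.95% of the Agt+Wnt4+ cells of the large intestine (interval 16.7 to 19.3) and in at most 4.97% of those of any other library. Des was found in 4.12% of the same large intestinal cells (interval 3.47 to 4.86) and in 11.7% to 21.8% of those of the other libraries. Intervals cover counting error only. Without thinning the mean share for Acta2 was 61.7% in the Agt+Wnt4+ cells and 10.8% in the Lyve1+Prox1+ cells.

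Along the gut, the Hhip+Npnt+ cells of the large bowel had less of many contractile genes than those of the small intestine. Of 33 members tested 17 fell and 1 rose, where 6.08% of the 10459 genes fell and 5.36% rose (edgeR, mean of cecum and large intestine against the mean of both small intestinal regions, spread from the replicate pairs). The median log2 fold change was -0.89 over the members and -0.08 over all genes. Myocd (-3.95 ± 0.33, adjusted p 2.3e-05), Des (-3.79 ± 0.34, adjusted p 3.4e-05) and the Z-line protein Ldb3 (-5.63 ± 1.08, adjusted p 0.00597) fell most. Ldb3 had between 26.6 and 56.7 CPM in the small intestine, 4.70 CPM (2 UMIs) in the cecum and 0 UMIs in the large intestine, so its fold is poorly set. Synm (-3.67 ± 0.40), Lmod1 (-2.54 ± 0.28), Cacna1c (-2.07 ± 0.35), Cnn1 (-2.06 ± 0.28), Myh11 (-1.84 ± 0.26) and Actg2 (-1.70 ± 0.24) fell too. Synm had 12.3 CPM in the large intestine, which, like the values of Des and Myocd there, rests on few UMIs. The member that rose was Ppp1r14a (0.91 ± 0.22, adjusted p 0.0239). Acta2 gave -0.13 ± 0.20 (adjusted p 0.743) over the whole gate, although it was higher in the large bowel within the parts with and without Pdgfra. The Pdgfra+ share of these cells moved with the region, as given above: with the Pdgfra+ cells removed, which leaves 12 cells of the cecum and too few of the large intestine, 1 of 33 members fell, Fhl1 (-1.43), and 0 rose, against 0.41% and 0.913% of the 9746 genes tested. The values of Cnn1 (0.46), Actg2 (0.33) and Tagln (0.68) then had the opposite sign, and those of Myh11 (-0.32) and Des (-0.49) were nearer 0, none of them called. The members called numbered 10 without the cecum and 10 without the large intestine. Of 29 other pathway genes tested 4 rose, the highest being Cav1 (1.63), and 7 fell, led by Chrm3 (-6.34), Kcnma1 (-2.24) and Dmd (-2.21).

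In the Agt+Wnt4+ cells the filament and motor genes were higher in the large bowel. Of 33 members tested 12 rose and 4 fell in the large bowel, where 17.5% of the 15114 genes rose and 13.6% fell (edgeR), with a median log2 fold change of 0.47 over the members and 0.01 over all genes. Cnn1 (3.01 ± 0.50, adjusted p 0.00749), Actg2 (2.46 ± 0.42, adjusted p 0.00835) and Tagln (2.10 ± 0.19, adjusted p 0.000793) rose most, although Cnn1 reached at most 7.76 CPM and Actg2 at most 17.3 CPM in any library. All 5 filament and motor genes rose, Myh11 at 2.03 ± 0.26 and Acta2 at 1.69 ± 0.21 (adjusted p 0.00252), as did Jph2 (1.84 ± 0.17) and Ppp1r14a (1.79 ± 0.19). Ppp1r14a had 137, 144, 249, 190, 683 and 426 CPM, so the 2 large bowel libraries lay above the other 4. The members that fell were Ryr2 (-4.18 ± 0.35, adjusted p 0.000636), Cacna1c (-1.74 ± 0.32, adjusted p 0.0108), Synpo2 (-0.96 ± 0.20, adjusted p 0.0156) and Ppp1r12b (-0.60 ± 0.18, adjusted p 0.0427). Ryr2 had 5.83, 4.71, 11.4 and 14.3 CPM in the small intestine and 0.346 and 0.451 CPM in the cecum and the large intestine. Des was not called (-0.50 ± 0.22, adjusted p 0.118), and the cecum had the highest and the large intestine the lowest of its 6 values. Without either proximal replicate 9 members were called. Of 29 other pathway genes tested 9 rose, led by Cav1 (3.16) and Kcnma1 (2.52), and 7 fell, led by Chrm3 (-3.52).

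The difference of the region effects between the 2 gates was tested as an interaction, the difference between large bowel and small intestine in the Hhip+Npnt+ over Agt+Wnt4+ fold. It was negative and past the threshold for 21 of the 33 members and positive for 1, Ryr2, where 4.5% of the 13329 genes were lower and 2.86% were higher (edgeR, library as a block, adjusted p under 0.05). Cnn1 gave -4.54 ± 0.52 (adjusted p 8.53e-05) and Actg2 -3.96 ± 0.44 (adjusted p 6e-05), that is, both separated the 2 gates less in the large bowel. The test is of a difference and not of opposite directions: Des gave -3.79 in the Hhip+Npnt+ and -0.50 in the Agt+Wnt4+ cells, Ryr2 -1.36 and -4.18, and Flna -1.05 and 0.07. No member was positive without the cecum, with free RNA subtracted, after thinning or with 2 UMIs summed over the gate genes. With the Pdgfra+ cells of the Hhip+Npnt+ gate removed 6 members were lower and 2 higher, against 1.21% and 0.349% of the 13752 genes tested, and of the large bowel this leaves only the 12 cecal cells (5 libraries).

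**Figure D5:**
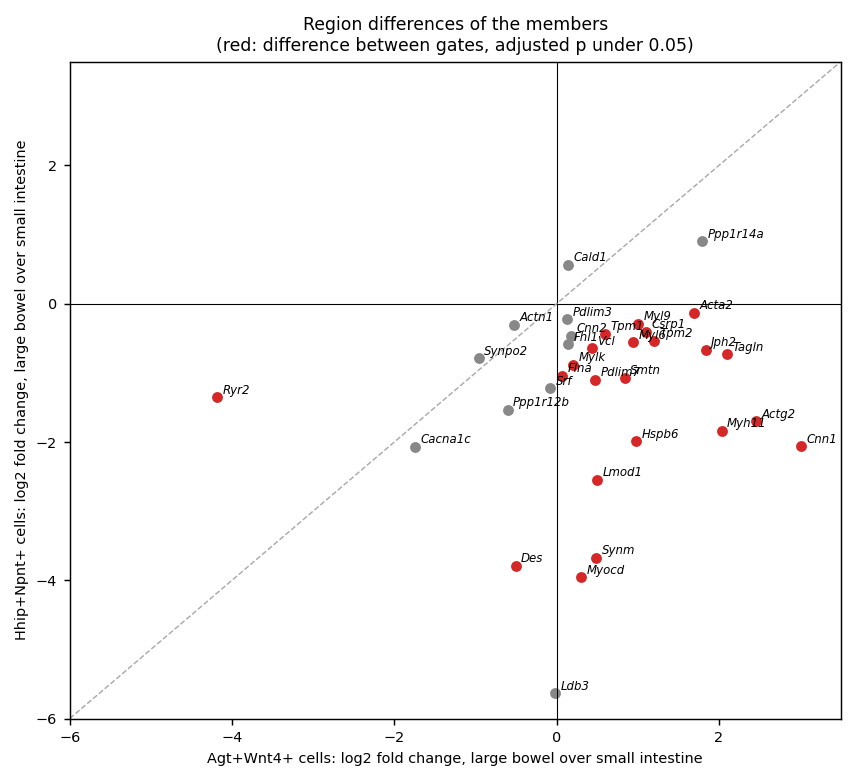
Log2 fold change of each member between large bowel and small intestine in the Agt+Wnt4+ cells (horizontal) and in the Hhip+Npnt+ cells (vertical), from edgeR; the dashed line marks equal change and red points are the 22 members for which the difference between the gates passed an adjusted p of 0.05. Cnn1 lies at 3.01 and -2.06, and Ryr2 is the only red point above the dashed line.

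Between proximal and distal small intestine edgeR called no member. In the Hhip+Npnt+ cells 0 of 33 members rose or fell at an adjusted p under 0.05 (edgeR), where 0% of the 10809 genes rose and 0.00925% fell (1 gene), and 2 members, Ryr2 and Ldb3, had an unadjusted p under 0.05, as did 4.84% of all genes tested. In the Agt+Wnt4+ cells 0 of 32 members were called among 13875 genes, of which 0% rose and 0% fell, and 5 members had an unadjusted p under 0.05, against 2.99% of all genes tested. DESeq2 called 0 members in the first gate and 1 in the second, limma-voom 0 in both, and edgeR without a filter on low counts 1 and 3. With the replicate number as a block, Ryr2 (-1.13) was called in the first gate and Myocd (1.81), Ryr2 (-1.36) and Myh11 (1.24) in the second. The labels do not say whether the number pairs the libraries. Deviations of same-numbered libraries correlated at 0.0128 in the first gate and at 0.460 in the second, so the main fit may leave out a pairing there. The largest difference in the Agt+Wnt4+ cells was that of Myocd, 1.77 ± 0.33 higher proximally (adjusted p 0.721), with 47.4 and 46.2 CPM in the proximal and 7.38 and 17.98 CPM in the distal replicates. Ryr2 gave -1.30 ± 0.36 in the Hhip+Npnt+ cells and -1.34 ± 0.27 in the Agt+Wnt4+ cells, lower proximally in both. It was not called in either gate, but was called in both without the filter on low counts or with the block, and in the Hhip+Npnt+ cells also without distal replicate 1. In the Hhip+Npnt+ cells Ldb3 gave -0.91 ± 0.26, Tagln -0.52 ± 0.24, Cnn1 -0.51 ± 0.24, Acta2 -0.21 ± 0.24, Des -0.12 ± 0.24 and Synm 0.16 ± 0.23. Values below 0 are lower proximally, and none of these was called.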

How the data were processed

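Per the labels and methods, the authors aligned droplet-based 3′ libraries with Cell Ranger 8.1.0 (8.0.1 in the matrix headers) to mm39 with tdTomato added and deposited raw UMI counts of every barcode. From these counts, barcodes were taken as cells if they had from 1000 to 7500 genes, from 2500 to 40000 UMIs and less than 10% of UMIs from mitochondria. Doublets called by Scrublet (scanpy 1.11.5) were removed, between 4.91% and 11.4% per library. Barcodes with at most 100 UMIs, taken as free RNA and not as cells, held 2.90% to 3.82% of UMIs. Free RNA within the kept cells was neither measured nor removed, and an assumed 10% was subtracted only as an alternative. UMIs were summed per library and gate and tested with edgeR 4.0.16 (quasi-likelihood, at least 10 UMIs by filterByExpr, TMM, Benjamini-Hochberg over all genes tested). SE is the log2 fold change divided by the root of F. Gate comparisons had the library as a block, and region comparisons used group means with the spread of the replicate pairs. limma 3.58.1 (voom), DESeq2 1.42.0, other gates, filters and scalings and leaving out each library were alternatives. The fits were tested on simulated data. The 33 members, the gates and the gene lists were chosen with earlier results of these data known. Values in every library are given for 10 members, and in each comparison mainly for the members called with the largest changes; others are named beside them for their role. Intervals are exact binomial (95%) and cover counting error only.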

Additional observations from a re-analysis of the deposited data

Results flagged for a closer look

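The fold between Hhip+Npnt+ and Agt+Wnt4+ cells differed between large bowel and small intestine, by edgeR's test of the difference itself (adjusted p under 0.05), for 22 members. Of the 13329 genes tested, 4.5% were lower and 2.86% were higher. On the log2 scale, large bowel minus small intestine, the filament and motor genes gave -1.79 for Acta2, -3.96 for Actg2, -3.77 for Myh11, -1.23 for Myl9 and -1.46 for Myl6. The thin filament regulators gave -4.54 for Cnn1, -2.78 for Tagln, -2.69 for Lmod1, -1.75 for Smtn, -1.69 for Tpm2 and -0.99 for Tpm1. Of the genes of filaments, dense bodies and adhesions, Synm gave -3.94, Hspb6 -2.92, Des -2.91, Csrp1 -1.45, Pdlim7 -1.45, Flna -1.07 and Vcl -1.03. The large intestinal Hhip+Npnt+ levels of Synm (12.3 CPM), Hspb6 (6.17 CPM) and Des (18.5 CPM) came from 162113 UMIs in all and so from few UMIs. The kinase Mylk gave -1.04, the junctophilin Jph2 -2.49 and the cofactor Myocd -3.66. Ryr2 alone was positive, at 2.95. No member was positive under 4 alternatives, namely without the cecum, with free RNA subtracted, after thinning and with 2 UMIs summed over the gate genes. The Hhip+Npnt+ cells with a Pdgfra UMI made up 80.6% of the cecal and 91.7% of the large intestinal gate, against 28.5% to 52.2% in the small intestine. With them removed most of these members were no longer called, and only 12 cecal cells of the large bowel gate were left. Each large bowel region had 1 library.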

How the results depend on the processing

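Of the counts of members called, 167 values under an alternative were within 1.5 times the reported count and 25 were not, and of the values of single members 2398 kept their direction and side of the threshold, 247 lost a call, 124 gained one and 15 changed sign. With a gate of 2 UMIs summed, 7 members were called between Hhip+Npnt+ and Rgs5+Kcnj8+ cells and 29 between regions in the Hhip+Npnt+ cells, and signs changed for Lmod1 (1.15, Agt+Wnt4+ against Grem1+Dkk2+) and, in Lgr5+Foxl1+ against Agt+Wnt4+ cells, for Cacna1c (-0.14), Pdlim3 (0.67), Tagln (1.57), Myh11 (1.15), Mylk (0.45) and Acta2 (1.17). With 2 UMIs of each gate gene, 7 members were called between regions in the Hhip+Npnt+ cells, where Tagln became 0.039, and 13 in the interaction. Thinning gave 7 members in Rgs5+Kcnj8+ against Agt+Wnt4+ cells. For the Lgr5+Foxl1+ cells limma-voom gave 3 members, the fit without the library block 2, removal of cells with several hashtags 3, removal of every cell in more than 1 gate 1 and the stricter cell filter 3. With Pdgfra+ cells removed, an alternative chosen after seeing the data, as were all those of the interaction, 1 member was called between regions in the Hhip+Npnt+ cells and 8 in the interaction, and signs changed for Actg2 (0.33), Cnn1 (0.46) and Tagln (0.68) between regions and for Csrp1 (0.62), Synm (-0.93), Pdlim3 (0.90) and Mylk (1.09) in Rgs5+Kcnj8+ against Agt+Wnt4+ cells. The causes were not tested. With a library left out, the counts lay between 13 and 27 for Hhip+Npnt+ against Rgs5+Kcnj8+ cells, 10 and 25 between regions in the Hhip+Npnt+ cells, 9 and 20 between regions in the Agt+Wnt4+ cells, and 0 and 2 between proximal and distal Hhip+Npnt+ cells (2 without distal replicate 1). Between proximal and distal Agt+Wnt4+ cells DESeq2 called 1 member, and without a filter on low counts 3 were called there and 1 in the Hhip+Npnt+ cells. With the replicate number as a block, 1 member (Ryr2, -1.13) was called between proximal and distal Hhip+Npnt+ cells and 3 (Myocd 1.81, Ryr2 -1.36, Myh11 1.24) in the Agt+Wnt4+ cells. The deviations of same-numbered libraries correlated at 0.0128 and 0.460 in these gates. The labels do not say whether libraries of the same number share a mouse, a day or nothing. Without TMM the median of all genes moved from 0.02 to 0.24 for Agt+Wnt4+ against Grem1+Dkk2+ cells and from 0.01 to -0.16 between regions in the Agt+Wnt4+ cells. Without thinning, mean shares of cells with a UMI were 57.4%, 61.7%, 39.1%, 24.3% and 10.8% for Acta2 in Rgs5+Kcnj8+, Agt+Wnt4+, Lgr5+Foxl1+, Grem1+Dkk2+ and Lyve1+Prox1+ cells. They were 2.49%, 2.90% and 1.13% for Actg2 and 39.2%, 11.8% and 1.69% for Des in Agt+Wnt4+, Grem1+Dkk2+ and Lyve1+Prox1+ cells, and 13.1% and 1.82% for Myh11 in Agt+Wnt4+ and Lyve1+Prox1+ cells. For lack of cells, 3 alternatives could not be fitted for the Lgr5+Foxl1+ cells (2 UMIs of each gate gene, no UMI of another gate, thinning), nor could the gate with no UMI of another gate for either region comparison of the Hhip+Npnt+ cells.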
